A study of Mus musculus with 2 samples.

Results

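Potassium channel genes were examined in primary mouse myoblasts, the dividing precursors of muscle fibres, after exposure to the signalling protein Wnt3a. The members were the genes whose symbol begins with Kcn and to which at least 1 probe set was assigned alone, with antisense and opposite-strand transcripts left out. This gave 81 of 18193 genes, covered by 159 probe sets. The cells came from newborn Sv129 mice and were grown on a laminin and collagen coating. Wnt3a myoblasts spent 4 hours in DMEM with 2% horse serum and 100 ng/ml Wnt3a, and control myoblasts spent 4 hours in the same low-serum medium without it. Each condition was measured on 1 array, so no difference below has a replicate check, a standard error or a p-value. Whether cells of several animals were pooled is not stated in the labels.

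Potassium channels let potassium leave or enter the cell down its gradient, set the resting membrane potential and end electrical signals. Voltage-gated (Kv) channels open on depolarisation, inward rectifiers (Kir) pass current near the resting potential, K2P channels carry a steady leak, and the KCa and Slo channels open with intracellular calcium, sodium or pH. In human myoblasts, the voltage-gated channel encoded by KCNH1 and the inward rectifier encoded by KCNJ2 are known for the hyperpolarisation that precedes differentiation and fusion. Wnt3a signals through frizzled receptors and stabilises β-catenin, which acts on genes with TCF/LEF factors.

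Levels are given as log2(intensity + 1) of each gene's brightest probe set, by its mean over the arrays, and differences as Wnt3a minus control on that scale. A gene counted as measured if it reached a floor of 6 (an intensity of 63) on either array. This cut-off carries no call of presence or absence, and brightness also depends on how well a probe set binds, so levels of different genes do not rank their transcripts.

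Most potassium channel genes lay below the floor, and most of those above it lay only just above. Of the 81 genes 30 reached it (37.0%), against 62.6% of all genes of the series, and 51 were below it on both arrays. Of the 30 measured genes 18 (60.0%) lay within 0.5 of the floor on their brighter array, against 9.54% of all measured genes. Only 8 members reached 7 on either array (9.88%, against 51.8% of all genes), and 2 reached 8, Kcnn4 and Kcnk2. In the other channel families counted for comparison, calcium channel subunits reached the floor in 8 of 24 genes, TRP channels in 9 of 22, sodium channel subunits in 1 of 11 and the CLC chloride channels and transporters in 6 of 7.

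Among the classes, the calcium- or sodium-activated and Slo genes had 6 of 11 members at the floor and the K2P genes 6 of 12. The voltage-gated pore subunits had 8 of 22, their auxiliary subunits 4 of 12, the inward rectifiers 4 of 15 and the silent voltage-gated subunits, which work only together with other Kv subunits, 2 of 9. The members just inside the floor were Kcnq1 (6.01 with Wnt3a and 5.77 in the control), Kcnj9 (5.995 and 6.013) and Kcna1 (6.02 and 5.90). Just outside it were Kcnh2 (5.96 with Wnt3a and 5.78 in the control), Kcnj16 (5.86 and 5.94) and Kcnab3 (5.94 and 5.91). Both arrays were at or above the floor for 23 measured members, the Wnt3a array alone for 3 (Kcna1, Kcnq1 and Kcnk13) and the control array alone for 4 (Kcnq5, Kcnj6, Kcnj9 and Kcnk16).

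**Figure D1:**
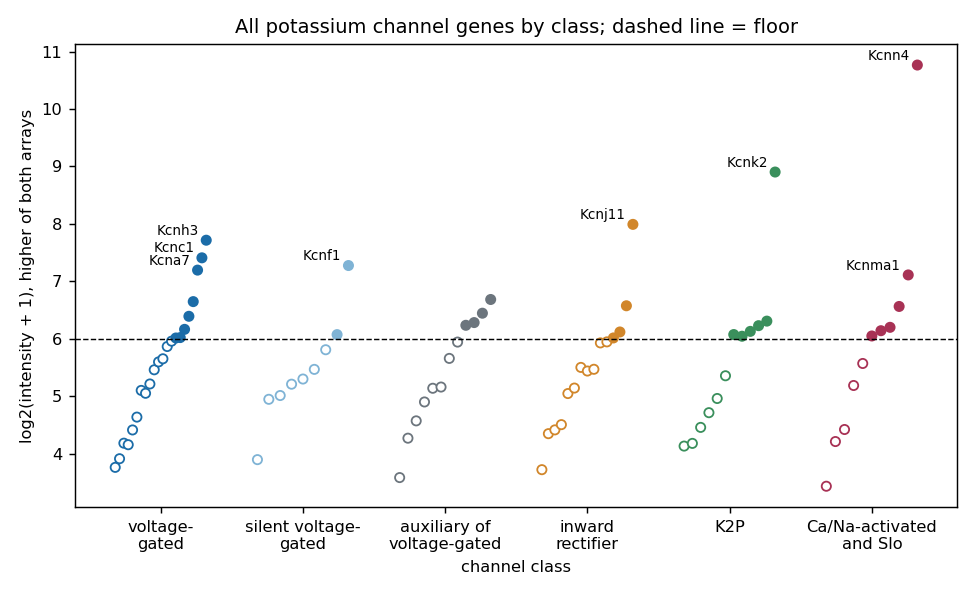
Brightness of all 81 potassium channel genes by channel class, each point a gene at the higher of its 2 array values on the log2(intensity + 1) scale, filled at or above the floor of 6 (dashed) and open below it. Labelled genes are at 7 or more, and most filled points sit just above the dashed line.

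The measured potassium channel genes showed no shared direction between the Wnt3a and the control array, and the few with wider differences were Kcnn4 and Kcnk2, lower with Wnt3a, and Kcnf1, higher with Wnt3a. Of the 30 measured members 15 were higher and 15 lower with Wnt3a, while 47.3% of all 11397 measured genes were higher and 51.2% lower. Their median difference was 0.0091, against -0.0057 for all measured genes, and their differences ran from -0.46 to 0.48, while the central 95% of all measured genes lay between -0.33 and 0.33. A difference of at least 0.32 on the log2 scale, an increase by 25% or the equivalent decrease, was counted as past the threshold. By this rule 1 member was higher, where 2.61% of all measured genes were, and 2 members were lower, where 2.70% were. At 1.5-fold there was no member in either direction, with 0.886% of all measured genes higher and 0.342% lower. No member reached 2-fold, where 0.254% of all measured genes were higher and 0.0614% lower. The shares of the members past the threshold, 3.33% and 6.67%, rest on 1 and 2 genes. In such a bulk sample, fewer cells carrying a transcript and less of it per cell cannot be told apart.

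The 3 members past the threshold of 0.32 were all among the 8 whose mean over both arrays was 7 or more, a range where 2.28% of measured genes were higher and 2.51% lower by that much. None of the 22 dimmer members passed it, in a brightness range where 4.12% of measured genes were higher and 3.54% lower by that much. Directions are relative to the bulk of genes. All 42 spike-in control probe sets were lower on the Wnt3a array, with a median difference of -0.19, and centring on them made 26 of the 30 measured members higher and 4 lower, beside 90.1% of all measured genes higher.

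**Figure D2:**
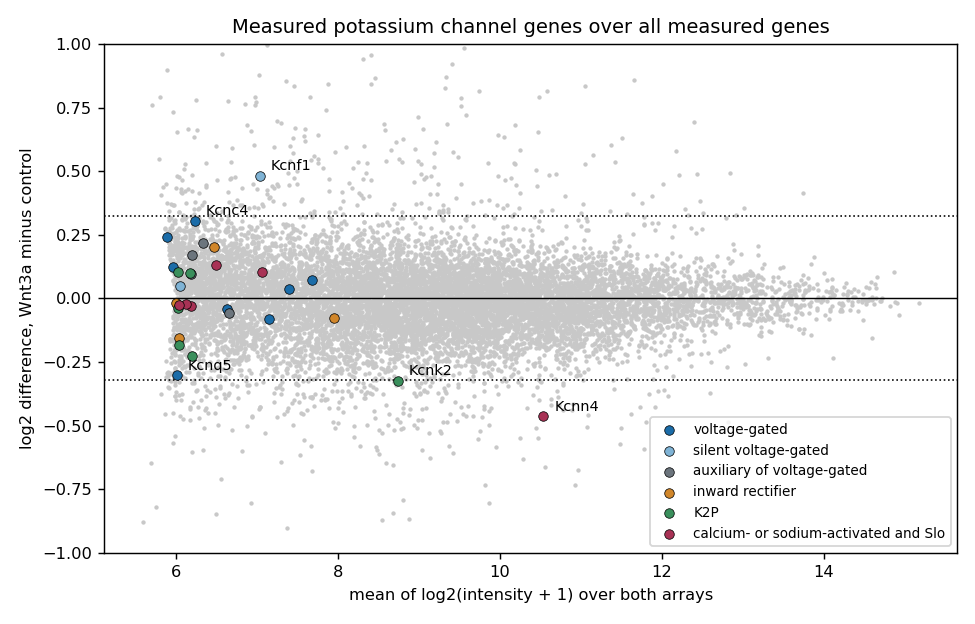
Difference between the Wnt3a and control arrays (log2, Wnt3a minus control) against the mean level over both arrays, for all measured genes (grey) and the measured potassium channel genes coloured by class, with dotted lines at 0.32 in each direction. Kcnn4 and Kcnk2 lie below the lower dotted line and Kcnf1 above the upper one. The 36 measured genes that differed by more than 1 lie outside the plot, and none of them is a potassium channel gene.

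Kcnn4 encodes the intermediate-conductance calcium-activated channel (SK4, also called IK or KCa3.1), known from lymphocytes, red blood cells and many dividing cells, which opens when calcium binds its calmodulin. It was at 10.30 on the Wnt3a array and 10.77 on the control array, intensities of 1264 and 1741, so it was 1.38-fold lower with Wnt3a (difference -0.46). The size of this difference exceeded that of 97.7% of measured genes. The second Kcnn4 probe set was at 9.33 with Wnt3a and 9.57 in the control, a difference of -0.24 in the same direction. The mean of both probe sets gave -0.35, and centring on the spike-in controls gave -0.27, which misses the threshold. Both probe sets carry a suffix for probe sets that can match several transcripts of a gene.

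Kcnk2 encodes TREK-1, a K2P leak channel opened by membrane stretch and by polyunsaturated fatty acids. It was at 8.58 on the Wnt3a array and 8.90 on the control array, intensities of 381 and 478, a difference of -0.32. It rests on 1 probe set and lay at the threshold itself. With a loess trend removed it was -0.30, and with spike-in centring -0.135, both short of it.

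Kcnf1 encodes Kv5.1, a silent subunit that forms no channel of its own and alters the gating of Kv2 channels. It was at 7.27 on the Wnt3a array and 6.79 on the control array, intensities of 154 and 110, so it was higher with Wnt3a by 0.48. The other Kcnf1 probe set was at 7.09 with Wnt3a and 6.97 in the control, a difference of 0.11. Both probe sets had a mean of 7.03, so the choice between them was nearly a tie, and their average gave 0.30, short of the threshold. Of the 3 genes, Kcnn4 had both probe sets in 1 direction, at -0.24 and -0.46, Kcnf1 had them in 1 direction but unlike in size, and Kcnk2 had no second probe set.

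The promoters of these 3 genes are shown because they belong to the members past the threshold, as the 250 bases before an annotated start in RefSeq (GRCm38.p6), 5′ to 3′ on the gene's strand. Capitals mark matches on either strand to CTTTGA, a core of TCF/LEF binding, and to CANNTG, the general E-box. MyoD-type factors bind some forms of the E-box, but CANNTG leaves the middle letters open, so a match names no factor. TGANTCA, the AP-1 element, was searched as well. No matches overlapped. Other annotated transcripts of Kcnn4 and Kcnk2 begin further upstream, so their windows lie inside the annotated span of the gene.
Kcnn4 (chr7:24370013-24370262, plus strand): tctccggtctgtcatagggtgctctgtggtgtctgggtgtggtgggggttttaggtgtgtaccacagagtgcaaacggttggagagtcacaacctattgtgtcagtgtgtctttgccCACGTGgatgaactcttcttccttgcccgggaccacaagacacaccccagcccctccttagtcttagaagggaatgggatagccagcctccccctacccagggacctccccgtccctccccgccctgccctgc
Kcnk2 (chr1:189402274-189402523, minus strand, the outermost of 4 starts in the table): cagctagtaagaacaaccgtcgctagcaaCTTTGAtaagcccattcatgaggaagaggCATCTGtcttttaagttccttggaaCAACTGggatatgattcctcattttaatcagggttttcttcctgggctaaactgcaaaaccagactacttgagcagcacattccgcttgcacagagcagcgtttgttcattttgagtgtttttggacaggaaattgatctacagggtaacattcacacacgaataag
Kcnf1 (chr12:17176889-17177138, minus strand): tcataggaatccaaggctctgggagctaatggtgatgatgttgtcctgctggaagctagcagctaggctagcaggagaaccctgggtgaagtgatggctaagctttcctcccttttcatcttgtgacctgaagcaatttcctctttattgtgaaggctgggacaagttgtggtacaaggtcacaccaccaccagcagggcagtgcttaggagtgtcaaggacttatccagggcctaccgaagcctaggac

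The Kcnn4 window held 1 E-box and no TCF/LEF core, the Kcnk2 window printed held 1 TCF/LEF core and 2 E-boxes, and the Kcnf1 window held none of the 3 motifs. Among all 32851 windows of this length, 13.8% held CTTTGA, 66.2% held CANNTG and 6.75% held TGANTCA. The other 3 Kcnk2 starts held no TCF/LEF core, and 1, 1 and 0 E-boxes. The single TGANTCA match among the windows of the 3 genes was at the second Kcnk2 start. A match is a run of letters and does not show binding.

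**Figure D3:**
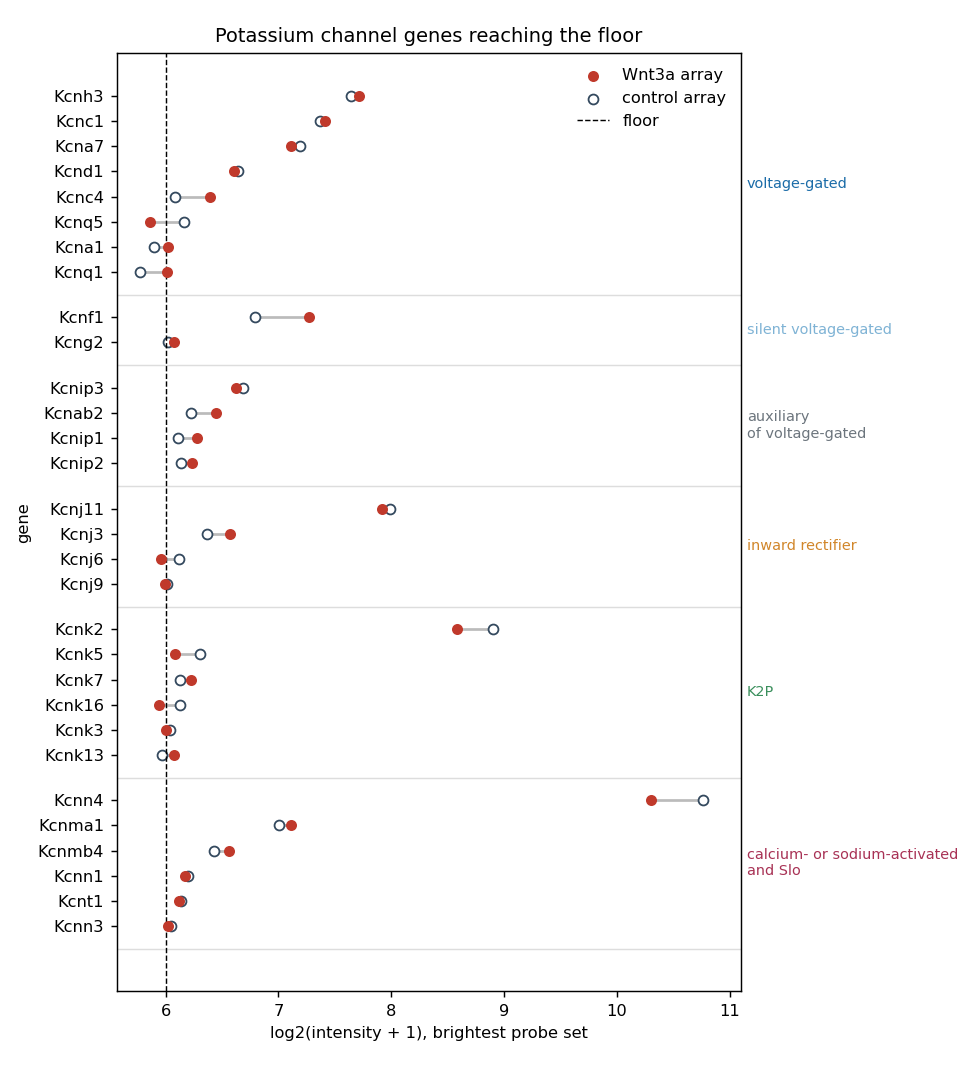
Levels of the 30 measured potassium channel genes on the Wnt3a array (filled red) and the control array (open), as log2(intensity + 1) of the probe set that stands for the gene, grouped by channel class. The floor of 6 is dashed. Kcnn4 and Kcnk2 stand far to the right with the control value above the Wnt3a value, Kcnf1 has the order the other way round, and many genes crowd at the floor.

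The remaining measured calcium- or sodium-activated and Slo genes differed little. Kcnma1, the pore of the large-conductance calcium-activated (BK) channel, was at 7.11 with Wnt3a and 7.01 in the control, while its 4 other probe sets lay below the floor and were lower with Wnt3a by 0.03 to 0.19. Kcnmb4, a β subunit that slows BK gating, was at 6.56 and 6.43. The small-conductance channel genes Kcnn1 (6.17 with Wnt3a and 6.20 in the control) and Kcnn3 (6.02 and 6.05) and the sodium-activated channel gene Kcnt1 (6.12 and 6.14) differed by 0.03 or less. Below the floor were Kcnmb1, Kcnmb2, Kcnn2, Kcnt2 and the Slo3 gene Kcnu1, of which Kcnmb2 was the brightest (5.30 with Wnt3a and 5.57 in the control). Over the 6 measured genes of the class, Kcnn4 included, 2 were higher and 4 lower (median difference -0.02).

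The other measured K2P genes lay close to the floor. Kcnk5 (TASK-2), an acid-sensitive leak channel, was at 6.08 with Wnt3a and 6.31 in the control (difference -0.22), and a second probe set, below the floor, gave 0.08. Kcnk16 (TALK-1), a leak channel known from pancreatic islets, was at 5.95 with Wnt3a and 6.13 in the control. Kcnk7, which encodes a subunit with no known current of its own, was at 6.23 and 6.13, and Kcnk13 (THIK-1) at 6.07 and 5.97. Kcnk3 (TASK-1), the acid-sensitive channel of many excitable cells, was at 6.005 with Wnt3a and 6.043 in the control, with 0.11 and 0.17 on probe sets below the floor. In the class 2 measured genes were higher and 4 lower (median difference -0.11). The TREK-1 relatives Kcnk10 (TREK-2, at 5.35 with Wnt3a and 5.24 in the control) and Kcnk4 (TRAAK, 4.96 and 4.95) were below the floor.

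Kcnj11 was the brightest of the inward rectifiers. It encodes Kir6.2, the pore of the ATP-sensitive channel that links metabolism to excitability in muscle and pancreatic islets, and was at 7.91 with Wnt3a and 7.99 in the control, with -0.05 on its second probe set below the floor. Its alternative pore gene Kcnj8 (Kir6.1) was below the floor on both arrays (5.36 with Wnt3a and 5.44 in the control). The same held for both sulfonylurea receptor genes that complete this channel, Abcc9 (5.79 with Wnt3a and 5.91 in the control) and Abcc8 (5.25 and 5.33). Of the G-protein-gated rectifier genes, Kcnj3 was at 6.57 with Wnt3a and 6.37 in the control (difference 0.20). Its 3 other probe sets lay far below the floor, between 3.44 and 3.69, with differences of 0, -0.10 and 0.19, and the mean of all 4 gave 0.07. Kcnj6 (5.96 with Wnt3a and 6.12 in the control) and Kcnj9 (5.995 and 6.013) were at the floor. The strong rectifier gene Kcnj4 (Kir2.3) was just below it at 5.93 with Wnt3a and 5.78 in the control. Probe sets of Kcnj6 ranged from -0.23 to 0.35 in difference. In the class 1 measured gene was higher and 3 were lower (median difference -0.05). Kcnj2, the mouse counterpart of the gene known from human myoblasts, was at 3.49 with Wnt3a and 3.72 in the control on its 1 probe set, the dimmest of the class.

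The voltage-gated pore genes were led in brightness by Kcnh3, Kcnc1 and Kcna7, none of which differed by more than 0.08. Kcnh3 (Kv12.2), best known from forebrain neurons, was at 7.72 with Wnt3a and 7.64 in the control, and its other 3 probe sets gave 0.05, 0.05 and 0.14. Kcnc1 (Kv3.1), the rapidly deactivating channel of fast-firing neurons, was at 7.41 and 7.37, with -0.15, -0.14 and -0.0049 on its other probe sets. Kcna7 (Kv1.7), a channel of heart and skeletal muscle, was at 7.11 with Wnt3a and 7.19 in the control on 1 probe set.

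Among the measured genes of this class, the widest differences were close to the floor. Kcnc4 (Kv3.4), a rapidly inactivating channel found in skeletal muscle, was at 6.39 with Wnt3a and 6.09 in the control (difference 0.30), with 0.07 on its second probe set, which also reached the floor. Kcnq5 (Kv7.5), an M-current subunit, was at 5.86 with Wnt3a and 6.16 in the control (difference -0.30), but 0.03 and 0.10 on its other probe sets below the floor. The mean of all Kcnq5 probe sets gave -0.06. Kcnd1 (Kv4.1), an A-type channel, was at 6.61 with Wnt3a and 6.65 in the control, Kcna1 (Kv1.1) was higher by 0.12 and Kcnq1 (Kv7.1), which forms the slow cardiac current with KCNE1, by 0.24. All 4 Kcna1 probe sets were higher with Wnt3a, by 0.03 to 0.12. Of the 8 measured genes 5 were higher and 3 lower (median difference 0.05). Kcnh1, the mouse counterpart of the human myoblast channel gene, was below the floor at 5.65 with Wnt3a and 5.54 in the control, and its second probe set differed by 0.09. Also within 0.5 below the floor were the Kv1 genes Kcna2 (5.86 with Wnt3a and 5.76 in the control) and Kcna6 (5.60 and 5.28, a difference of 0.31).

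Among measured silent and auxiliary subunits other than Kcnf1, differences were at most 0.22. Kcng2 (Kv6.2), a silent subunit, was at 6.07 with Wnt3a and 6.02 in the control, and Kcns3 (Kv9.3), another one, lay below the floor at 5.81 and 5.70. Kcnab2, a cytoplasmic β subunit of Kv1 channels, was at 6.44 and 6.23, while a second probe set, below the floor, gave -0.08. The calcium-binding Kv4 partners of the KChIP family were represented by Kcnip3 (6.63 with Wnt3a and 6.68 in the control), whose product also acts as a transcriptional repressor named DREAM, Kcnip1 (6.28 and 6.11) and Kcnip2 (6.23 and 6.14). Kcnip1 was lower with Wnt3a on 2 of its 3 other probe sets, by 0.11 and 0.16, all below the floor. Over the 4 measured auxiliary genes 3 were higher and 1 lower (median difference 0.13). The single-span KCNE subunits were all below the floor, with Kcne4 the brightest at 5.66 with Wnt3a and 5.49 in the control.

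Probe sets of the same gene are the only repeat measurement. Of the 45 other probe sets of measured members, 21 had the sign of the probe set that stood for the gene, and 8 reached the floor. Where at least 2 probe sets reached it, which held for 6 members (Kcnc1, Kcnc4, Kcnd1, Kcnf1, Kcnh3 and Kcnn4), the pooled SD of the difference between probe sets was 0.13, against 0.12 over 5084 such genes of the series. In 5 of the 6 the probe sets had 1 sign, all but Kcnc1, against 54.7% of such genes in the series. This SD covers probes on the same 2 arrays and not cultures or hybridisations, and 17 of the 30 measured members differed between the arrays by less than the SD of 0.13.

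**Figure D4:**
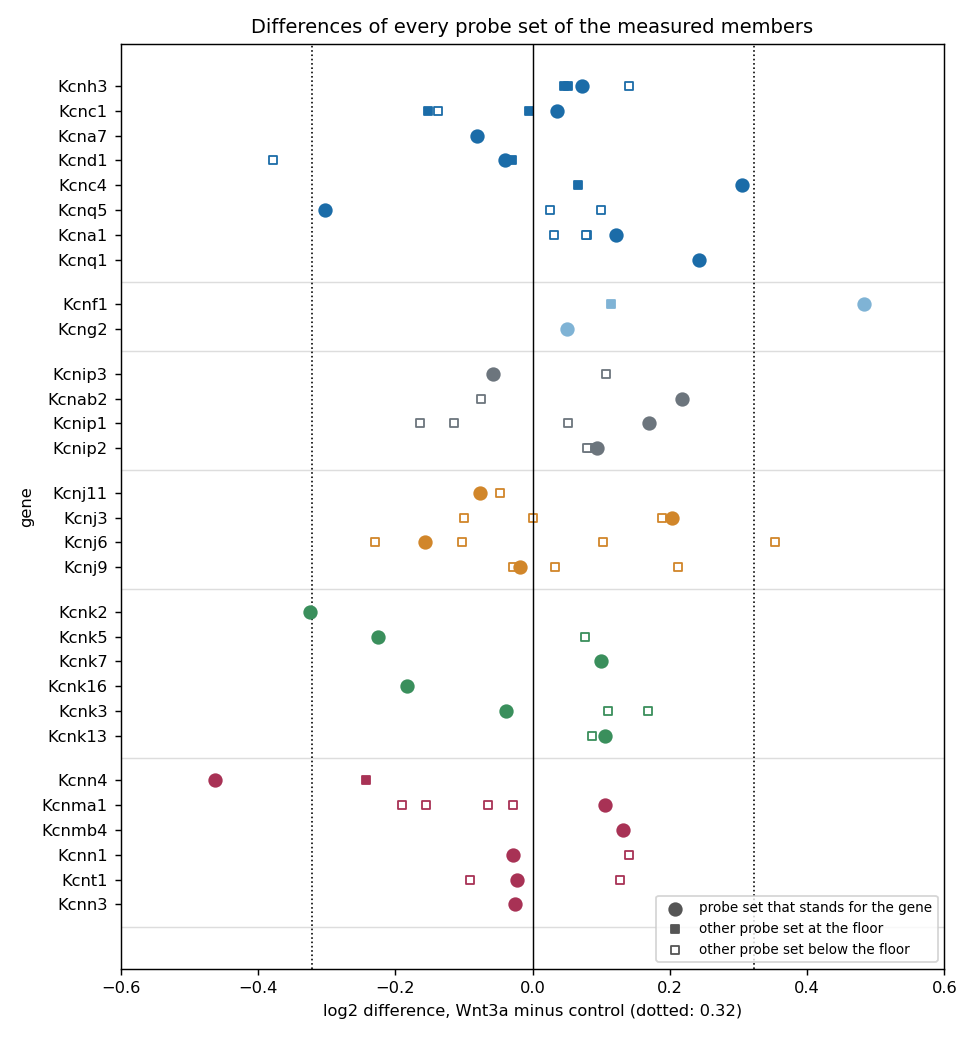
Difference between the Wnt3a and control arrays (log2, Wnt3a minus control) for every probe set of the 30 measured genes, with large circles for the probe set that stands for the gene, small filled squares for others at the floor and open squares for others below it. Dotted lines mark differences of 0.32 in size. The 2 Kcnn4 probe sets both lie left of 0 and the 2 Kcnf1 probe sets both right of it, while those of Kcnq5, Kcnma1 and Kcnip1 fall on both sides.

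Among the 51 genes below the floor on both arrays, 32 (62.7%) were higher and 19 lower with Wnt3a, with a median of 0.07. Of all 6796 genes below the floor 54.0% were higher and 40.3% lower. The median over those genes was 0.03. Differing by 0.32 or more were Kcnj5 (5.04 with Wnt3a and 4.49 in the control), Kcnj10 (5.50 and 5.12) and Kcna3 (5.10 and 4.75) on the higher side and Kcnmb1 (4.85 and 5.18) on the lower side. Of all genes below the floor, 3.75% were that much higher and 2.49% lower. The second Kcnj5 probe set was higher by 0.09, the same direction at a smaller size. The second Kcnmb1 probe set was also higher, by 0.03, opposite to the probe set that stood for the gene. No fold is given for these dim signals. The dimmest member was the sodium-activated channel gene Kcnt2, at 3.32 with Wnt3a and 3.43 in the control.

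Genes that work with potassium channels reached the floor at nearly the rate of all genes, and most of those measured were alike on both arrays. Of 33 listed partners 25 had a probe set of their own. Of these 17 reached the floor (68.0%, against 62.6% of all genes). Among the 17, 9 were higher and 8 lower with Wnt3a (median 0.03), beside 47.3% and 51.2% of all measured genes. None was higher by at least 0.32, where 2.61% of all measured genes were, and 1 was lower, where 2.70% were. This was Sgk1, a kinase that raises the surface level of several ion channels. Sgk1 was at 8.11 with Wnt3a and 8.98 in the control (difference -0.87, 1 probe set). Nedd4l, a ubiquitin ligase for channels that Sgk1 opposes, was at 8.53 with Wnt3a and 8.63 in the control. The sodium/potassium pump, which builds the potassium gradient, was represented by its β subunit genes Atp1b3 (12.15 with Wnt3a and 12.19 in the control) and Atp1b1 (7.87 and 7.78). Its α subunit gene Atp1a4 was below the floor at 5.14 with Wnt3a and 4.54 in the control (difference 0.60, 1 probe set). The potassium-chloride cotransporter genes Slc12a7 (9.64 with Wnt3a and 9.77 in the control) and Slc12a4 (9.09 and 9.01) differed little. So did the TRIC channel gene Tmem38b (9.63 and 9.76), whose product passes potassium across the sarcoplasmic reticulum, and its muscle relative Tmem38a was at 7.54 with Wnt3a and 7.36 in the control. The Kv2 partners Vapa (13.24 with Wnt3a and 13.26 in the control) and Vapb (10.60 and 10.47) differed little too. Near the floor were Dpp6 (6.06 and 5.86), a Kv4 partner, and Lrrc38 (5.97 and 6.05), a γ subunit of BK channels.

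The label of the cells matched their defining genes, since all 6 myoblast markers were at 10.9 or more on both arrays. Of these 6, 4 were higher and 2 lower with Wnt3a (median difference 0.04), and Myf5 was higher by 0.49, past the threshold. Leukocytes carry Kcnn4 as well. Of the 8 leukocyte markers 4 reached the floor, none above 7.0 on either array. These were Csf1r (6.95 with Wnt3a and 6.99 in the control), Cd3e (6.79 and 6.54), Laptm5 (6.54 and 6.82) and Fcer1g (6.15 and 6.30). Cd68, Adgre1, Itgam and the defining gene Ptprc (4.11 with Wnt3a and 3.83 in the control) were below the floor on both arrays. The summed intensity of the list was 532 with Wnt3a and 521 in the control. Kv channel genes are also abundant in neurons. Of the 8 neuronal markers 4 reached the floor, and the list summed to 2152 with Wnt3a and 1699 in the control, most of that gap lying in Tubb3 (9.74 and 8.91). Stmn2 was as bright (9.74 with Wnt3a and 9.68 in the control), Syn1 was at 7.34 and 6.91, a difference of 0.43 that passed the threshold, and Rbfox3 was at 7.21 and 7.24. Snap25, Nefl, Nefm and Elavl3 were below the floor on both arrays. Smooth muscle and pericyte markers reached it in 4 of 8 cases (summed 12173 with Wnt3a and 10482 in the control, most of it Acta2, which myoblasts also express). Acta2 was higher with Wnt3a by 0.33, past the threshold. The others that reached the floor were Tagln (10.87 with Wnt3a and 10.81 in the control), Notch3 (9.93 and 10.03) and Cspg4 (9.11 and 9.33). Myh11, Cnn1, Rgs5 and Pdgfrb were below it. Schwann cell markers reached it in 4 of 6 cases (782 and 731), endothelial markers in 2 of 8 (257 and 293) and fibroblast markers in 0 of 8 (290 and 276). The brightest Schwann cell markers were Erbb3 (8.71 with Wnt3a and 8.58 in the control) and Sox10 (7.43 and 7.35). The endothelial marker Tek was at 5.34 with Wnt3a and 6.16 in the control, a difference of -0.82 that passed the threshold. The part of other cells in the channel values was not tested.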

How the data were processed

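Total RNA from 1 Wnt3a and 1 control sample was measured on Affymetrix arrays after 3′ biotin labelling, per the labels' protocols. The authors deposited 1 intensity per probe set and array on a linear scale, and the submitters' processing notes name RMA, affy and limma without versions or order. How the values became linear is not stated in the labels. The median was 58.7 with Wnt3a and 57.9 in the control. The design allowed for linear or log2 values, and log2(intensity + 1) was used. GEO's platform annotation gave a single gene for 34945 of 45101 probe sets. All 81 members matched RefSeq GRCm38.p6 by Entrez identifier. The number of arrays limits the precision, and no test is possible.

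Named were all measured members, those within 0.5 below the floor, the brightest below it per class, and partners by size or brightness. Members below the floor that differed by 0.32 or more, marker genes, Kcnj2, Kcnj8, Kcnk4, Kcnt2 and the Abcc genes were named after their values were seen. Members, lists and thresholds were chosen with earlier results of these data known. Counting was tested on simulated data. Python 3.11.15, numpy 2.4.6, pandas 2.3.3, statsmodels 0.14.6 and matplotlib 3.10.9 were used.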

Additional observations from a re-analysis of the deposited data

How the results depend on the processing

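No paired analysis was possible because each group has 1 array. All alternatives were planned. A median or single difference counted as moved if it changed by more than the SD of 0.12 between probe sets, and a count if it changed by more than 1.5 times. The number of measured members was 81 with no floor, 57 with a floor of 5, 2 with a floor of 8 and 15 with the mean of all probe sets. Under these settings 47, 34, 0 and 8 of them were higher with Wnt3a, and 34, 23, 2 and 7 were lower. Higher by at least 0.32 were 4, 4, 0 and 0. Of all genes 100%, 77.1%, 42.7% and 56.3% were measured under these settings. Of those measured, 49.8%, 48.9%, 44.5% and 47.1% were higher, and 47.1%, 49.1%, 54.6% and 52.3% lower. By at least 0.32, 3.04%, 2.98%, 2.18% and 1.96% of them were higher. The median with a floor of 8 was -0.39, over 2 genes. Without probe sets that end in _s_at, _x_at or _a_at, which removes both for Kcnn4, 1 member was lower by at least 0.32. Of all measured genes 2.89% were that much lower under this setting. Centring on the spike-in controls gave 26 higher and 4 lower, 6 higher by at least 0.32 and 0 lower. It also gave 1 at least 1.5-fold higher (Kcnf1) and a median of 0.20. The same centring made 90.1% of all measured genes higher and 9.89% lower, with a median of 0.18. By at least 0.32, 14.2% of them were higher and 0.535% lower, and 1.84% were at least 1.5-fold higher. After removal of a loess trend or quantile normalization the 2 lower members were Kcnn4 and Kcnq5 in place of Kcnk2. Of all measured genes 2.54% and 2.57% were that much lower under these 2 settings. A floor on the mean, no pseudocount and values raised to the floor kept these counts within 1.5 times. Of the 30 single differences, 30 moved with spike-in centring, 8 with the mean of all probe sets and 0 with loess or without a pseudocount, and no member past 0.32 changed sign. Dim signals limit most members, since 18 of 30 lay within 0.5 of the floor.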

Other observations

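Of the opposite-strand transcripts left out of the channel genes, only Kcnq1ot1 reached the floor, and its level was alike on both arrays. Kcnq1ot1, the long noncoding RNA read from within Kcnq1 on the other strand and known for imprinting of its neighbours, was at 7.49 with Wnt3a and 7.51 in the control, and its second brightest probe set was at 7.14 and 7.10. Its 4 dimmer probe sets lay below the floor and differed by -0.22 to 0.15. Kcnq1 itself was at 6.01 with Wnt3a and 5.77 in the control. Kcnmb4os1 (3.86 and 4.02, a difference of -0.16) and Kcnmb4os2 (4.01 and 4.16, a difference of -0.14) were far below the floor, while Kcnmb4 reached it.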
